A study of Mus musculus with 24 samples.

Results

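Lin28a, Lin28b, Trim71, Hmga1, Hmga2, Igf2bp1, Igf2bp2 and Igf2bp3 were chosen by name as the Lin28 proteins, the let-7 target Trim71 and 2 further families of let-7 targets. All 8 were found among the 54242 gene symbols of the deposited table, and all 8 belonged to the 16447 genes whose mean level allowed a test. RNA was sequenced from CGR8 cells, a mouse embryonic stem cell (ESC) line. The 24 libraries formed 8 groups of 3, described as independent triplicates: a pool of Rsl24d1 siRNAs (si-Rsl24d1) or of non-targeting siRNAs (si-CTL), each with or without rescue, at day 0 or after 4 days of 10 nM retinoic acid (RA). Rsl24d1 encodes a factor for the assembly of the large ribosomal subunit, and the comparisons asked how its depletion, its re-expression and RA changed the transcripts of the cells.

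Day 0 cells were kept in serum with LIF, the cytokine that holds mouse ESCs in self-renewal, and were collected 72 h after transfection according to the protocol, while their sample descriptions say 48 h. Day 4 cells were moved to RA after the transfection; the sample labels list serum and RA for them, whereas the series text names LIF with RA. Cells without rescue carried an empty vector according to the labels and received no doxycycline. Cells with rescue were labelled RSL24D1_OE and received doxycycline, which induced an RSL24D1 protein in a puromycin-selected line. No day 4 group lacked RA, so RA, the change of medium and the time since transfection cannot be told apart in any comparison of day 4 with day 0, which is called the RA comparison below. The re-expressed protein, the line and the drug therefore cannot be told apart in any comparison of rescue with no rescue. All 8 stem cell markers examined (Pou5f1, Sox2, Nanog, Zfp42, Esrrb, Sall4, Klf4 and Dppa5a) were detected in every group, and their summed level was 4000 to 5470 TPM (the share of transcripts after correction for their length) at day 0 and 5970 to 7030 TPM at day 4. The markers did not move together, and the sum rests largely on Dppa5a, the most abundant. From day 0 to day 4 in si-CTL cells without rescue, Dppa5a (1.03 on the log2 scale) and Nanog (0.79) rose, and Pou5f1 (-1.10), Sall4 (-1.24), Sox2, Zfp42, Esrrb and Klf4 fell past the limma test, with the mean of the 8 going from 8.05 to 7.64 in log2(TPM + 1). In such bulk samples, fewer cells of a type and less RNA per cell cannot be told apart.

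The let-7 microRNAs are short RNAs that pair through their seed with sites in the 3′ untranslated region (3′UTR) of messenger RNAs, which are then repressed. LIN28A and LIN28B are RNA-binding proteins that bind let-7 precursors and block their maturation, and since let-7 in turn represses Lin28a and Lin28b, the pair forms a double-negative loop that is set towards LIN28 in pluripotent cells and towards let-7 as cells differentiate. TRIM71 (also called LIN41) is an RNA-binding ubiquitin ligase of early development, HMGA1 and HMGA2 are chromatin proteins that bend AT-rich DNA, and IGF2BP1 to IGF2BP3 are RNA-binding proteins that stabilise and localise messenger RNAs.

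The let-7 sequences show what ties these genes together. The RefSeq (GRCm38.p6) entries used here gave 9 mature let-7 or miR-98 names from 11 loci, all with the seed GAGGUAG at bases 2 to 8. The locus let-7a-2 was not among these entries. A representative set is printed 5′ to 3′ with the seed in capitals, to show that the members differ outside it.
mmu-let-7a-5p: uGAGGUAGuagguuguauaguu
mmu-let-7e-5p: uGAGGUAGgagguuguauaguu
mmu-let-7g-5p: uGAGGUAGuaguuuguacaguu
mmu-miR-98-5p: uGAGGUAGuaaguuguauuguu

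The reverse complement of this seed, CTACCTC, was searched on the transcript strand in the longest annotated 3′UTR of each gene (gencode vM21, GRCm38). All 8 genes held at least 1 match, against 10.3% of the 13447 tested genes with a 3′UTR. These genes are known for their regulation by let-7, so the presence of matches is no independent finding, and a match is a description of the sequence and not proof of a used site. Lin28b, Trim71, Hmga2 and Igf2bp1 held 4 matches each, a number that 0.0818% of the tested 3′UTRs reached. Lin28a held 2 matches, and Hmga1, Igf2bp2 and Igf2bp3 held 1 each. Among the 8 genes the number went with 3′UTR length: the 4 genes with 4 matches had 3′UTRs of 3014 to 6337 bases, Lin28a had 2775 bases and the 3 genes with 1 match had 1183 to 2119. Among the 1571 tested 3′UTRs within 20% of the length of that of Hmga2, 0.191% held at least 4. For each of the 8 genes, the share of tested 3′UTRs of like length with at least 1 match ran from 8.93% (Hmga1) to 35.6% (Igf2bp1). The following sites contrast genes with many matches and genes with 1, with the seed match in capitals and a final a where the match is extended by the A that makes it an 8-base site.
Lin28a, site 1: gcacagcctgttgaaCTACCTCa
Lin28a, site 2: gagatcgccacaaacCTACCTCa
Trim71, site 1: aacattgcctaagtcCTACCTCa
Trim71, site 3: tttagtatggattttCTACCTCa
Trim71, site 4: ttggcaaaaagttgtCTACCTCa
Hmga2, site 1: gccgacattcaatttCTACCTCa
Hmga2, site 2: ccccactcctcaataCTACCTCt
Hmga1, site 1: tcctctgttcacaaaCTACCTCt
Igf2bp2, site 1: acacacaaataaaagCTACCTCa
Igf2bp3, site 1: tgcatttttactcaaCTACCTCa

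All 4 matches of Trim71 were followed by A, as were both of Lin28a and 3 of the 4 of Igf2bp1, while 1 of 4 was in Lin28b and in Hmga2 and the single match of Hmga1 was not. On GRCm38 the Lin28a sites lie in the 3′UTR on the minus strand at chr4:134005190-134005196 and chr4:134004552-134004558, and the first Trim71 site at chr9:114512473-114512479. The 3rd and 4th Trim71 sites start at bases 3591 and 3617 of its 3′UTR and so lie close together. The single sites of Igf2bp2 and Igf2bp3 lie at chr16:22059474-22059480 and chr6:49086788-49086794, both on the minus strand, and that of Hmga1 at chr17:27563292-27563298 on the plus strand. The genes themselves span chr4:134003330-134018841 (Lin28a), chr10:45376620-45486395 (Lin28b), chr9:114507133-114564369 (Trim71), chr17:27556497-27563674 (Hmga1), chr10:120361275-120476469 (Hmga2), chr11:95957163-96005940 (Igf2bp1), chr16:22059009-22163299 (Igf2bp2) and chr6:49085223-49214957 (Igf2bp3).

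**Figure D1:**
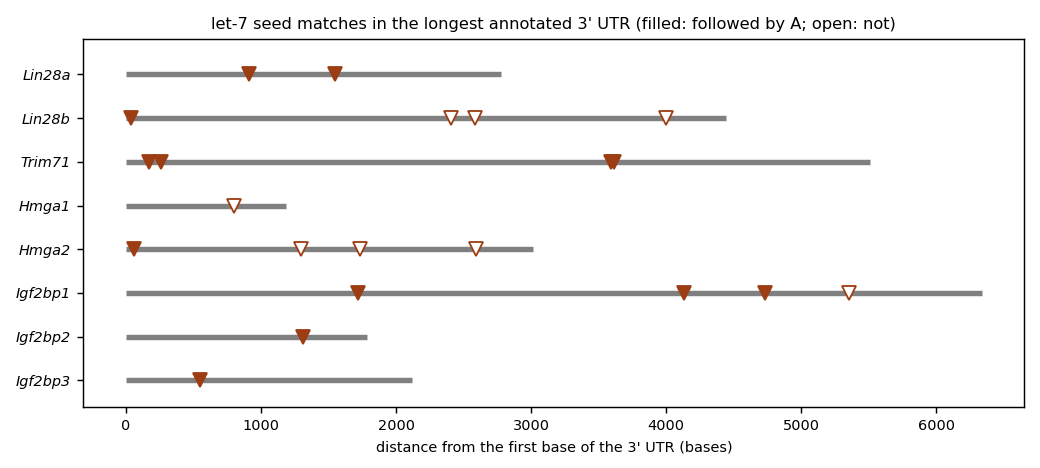
Grey bars show the longest annotated 3′UTR of each gene to scale, from its first base (horizontal axis, bases), and triangles mark let-7 seed matches, filled where an A follows. Trim71, Lin28b, Hmga2 and Igf2bp1 each carry 4 matches, and Hmga1, Igf2bp2 and Igf2bp3 carry 1.

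The libraries do not measure mature let-7. Of the 12 let-7 and miR-98 precursor symbols in the table, Mirlet7e was above 0 in 4 of 24 libraries and Mirlet7g in 1, and the other 10 were listed at 0 in all 24, so no statement about let-7 itself can be made. Mir100hg, the host RNA of a cluster that includes miR-100 and let-7a-2, was above 0 in all 24 libraries. Its mean level was 1.83 TPM in si-CTL cells at day 0 and 3.88 TPM at day 4, a difference of 0.79 ± 0.19 (SE) on the log2 scale (adjusted p = 0.001) that passed the test without being called. In the other 3 conditions it was called higher at day 4 (1.54 to 1.93), and at day 4 without rescue it was called higher in si-Rsl24d1 than in si-CTL cells (0.88, adjusted p = 0.0012). A host RNA is not a measure of the microRNAs processed from it.

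Levels are given in TPM, computed back from the deposited log2(TPM + 1) values. Differences are between group means of log2(TPM + 1), with the SE of limma, and each understates the change of low genes. A gene passed the test at a limma adjusted p below 0.01 (Benjamini-Hochberg over all 16447 tested genes, two-sided). It was called where it also differed by more than 1.8-fold (0.848 on the log2 scale). With 3 libraries in each group, the smallest p an exact permutation test allows is 0.1, and the limma test gains its degrees of freedom from all 8 groups. The number of reads behind each value is unknown, since TPM keeps no depth, and 13480 to 14459 genes per library were above 1 TPM. The target of the siRNA was lower in si-Rsl24d1 cells at day 0 and higher in them with rescue. Rsl24d1 was at 141 ± 6.08 TPM (SD, n = 3) in si-CTL cells, 35.7 ± 2.72 in si-Rsl24d1 cells and 107 ± 13.1 in si-Rsl24d1 cells with rescue. In si-CTL cells with rescue Rsl24d1 was at 151 ± 5.87 TPM. This did not differ detectably from si-CTL cells without rescue (0.1 on the log2 scale, limma adjusted p = 0.29), despite the label RSL24D1_OE. At day 4 it no longer differed detectably between si-CTL (97.9 ± 2.74 TPM) and si-Rsl24d1 cells (95.1 ± 5.33 TPM), with a difference of -0.04 (95% interval -0.19 to 0.11) on the log2 scale. With rescue at day 4, Rsl24d1 was at 118 ± 6.9 TPM in si-CTL and 131 ± 3.56 TPM in si-Rsl24d1 cells. Rescue minus no rescue was 0.27 in si-CTL cells (limma adjusted p = 0.011) and 0.45 in si-Rsl24d1 cells (limma adjusted p = 0.00032).

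In self-renewing si-CTL cells without rescue, the 8 genes spanned a wide range of levels. Hmga1 was the most abundant at 293 ± 7.33 TPM, followed by Lin28a at 169 ± 14.6 and Igf2bp1 at 139 ± 27.9 TPM, whose libraries of 171, 126 and 120 TPM did not overlap those of Hmga1 but did overlap those of Lin28a. Igf2bp2 (44.3 ± 2.43 TPM), Trim71 (39.7 ± 10.6), Hmga2 (33.8 ± 1.91) and Igf2bp3 (32.8 ± 3.79) formed a middle set in which the libraries of Trim71 overlapped those of the other genes, and Lin28b was lowest at 20.0 ± 2.84 TPM. Lin28a thus exceeded Lin28b in all 3 libraries (186, 162 and 159 against 23.3, 18.7 and 18.1 TPM).

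**Figure D2:**
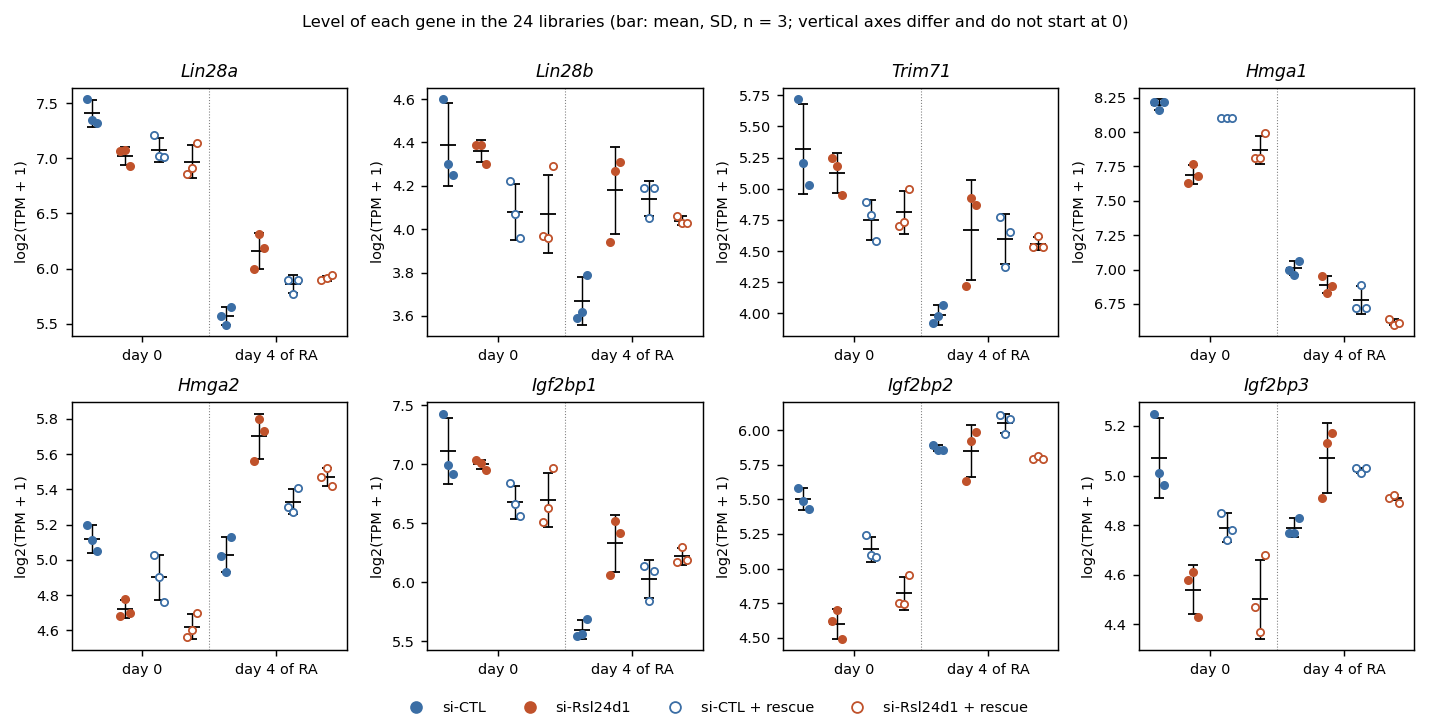
Each panel plots log2(TPM + 1) of 1 gene (vertical axis) in the 24 libraries by group (horizontal axis, day 0 left and day 4 right of the dotted line), with points for libraries and bars for the mean and SD of 3. Lin28a and Hmga1 lie lower at day 4 in all 4 conditions, and Igf2bp2 lies higher at day 4. Without rescue, si-Rsl24d1 points lie below si-CTL points at day 0 for Igf2bp2, Igf2bp3, Hmga1, Hmga2 and Lin28a.

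Depletion of Rsl24d1 at day 0 lowered 5 of the 8 transcripts, with Igf2bp2 lowered most, and left Lin28b, Trim71 and Igf2bp1 without a detected difference. Of the 8 genes, 1 was called and 7 were not, in a comparison in which 4.18% of all tested genes were called. By the adjusted p alone, 5 of 8 passed lower and 0 higher, where 16.1% of all tested genes passed lower and 14.3% higher. In the same 5 all si-Rsl24d1 libraries lay below all si-CTL libraries, as they did for 27.3% of tested genes. The median difference of the 8 genes was -0.39, beside -0.011 over all tested genes.

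Of the RNA-binding Igf2bp family, Igf2bp2 and Igf2bp3 fell and Igf2bp1 did not pass the test. Igf2bp2 was at 46.9, 43.9 and 42.1 TPM in the si-CTL libraries and at 23.6, 25 and 21.5 TPM in the si-Rsl24d1 libraries. The groups did not overlap, and the log2 difference was -0.90 ± 0.079 (SE, adjusted p = 1.7e-08), a TPM ratio of 0.527. Igf2bp3 went from 37.2, 31.3 and 30.1 TPM to 22.9, 23.5 and 20.6 TPM, also without overlap (-0.53 ± 0.081, adjusted p = 2.2e-05). Igf2bp1 read 171, 126 and 120 TPM against 130, 128 and 123 TPM, so that the groups overlapped, and its difference of -0.11 had a 95% interval of -0.39 to 0.17. Without the 3rd si-Rsl24d1 library, the difference of Igf2bp2 was -0.84 and missed the 1.8-fold threshold, with its adjusted p still past 0.01.

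The transcripts of both chromatin proteins fell. Hmga1 was at 297, 285 and 297 TPM in si-CTL libraries and at 197, 217 and 204 TPM in si-Rsl24d1 libraries (-0.51 ± 0.052, adjusted p = 1.4e-07), and Hmga2 at 35.9, 33.4 and 32.1 against 24.7, 26.4 and 24.9 TPM (-0.40 ± 0.071, adjusted p = 0.00013). Neither pair of groups overlapped. The level of Hmga1 is uncertain because 92.7% of the 31-base words of the separate gene Hmga1b occur in Hmga1 transcripts, so that reads could be split between them. Hmga1b fell alike (-0.44 ± 0.041, adjusted p = 3.5e-08), and the summed level of both fell from 1110 ± 17.2 to 811 ± 17.1 TPM. The opposite-strand genes AI413582 and Malsu1 (means of 3.87 and 5.12 in log2(TPM + 1)) overlap the 3′ ends of Hmga1 and Igf2bp3, and whether the counting used strand is not given in the sources used here.

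Within the Lin28 pair, Lin28a fell and Lin28b did not pass the test. Lin28a read 186, 162 and 159 TPM in si-CTL libraries and 133, 134 and 121 TPM in si-Rsl24d1 libraries (-0.38 ± 0.084, adjusted p = 0.0011), with every si-Rsl24d1 library below every si-CTL library. Lin28b read 23.3, 18.7 and 18.1 against 19.9, 20.0 and 18.7 TPM (-0.03, 95% interval -0.25 to 0.19), and Trim71 51.7, 35.9 and 31.6 against 37.0, 35.2 and 29.9 TPM (-0.19, interval -0.55 to 0.17). Both pairs of groups overlapped, and a difference of the size seen for Lin28a lies within the interval of Trim71 but not within that of Lin28b.

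With rescue, the same siRNA comparison at day 0 gave smaller differences for the genes that had fallen. For Lin28a (-0.11, adjusted p = 0.39), Hmga2 and Igf2bp3, the si-CTL means were lower with rescue (-0.32, -0.22 and -0.28). The si-Rsl24d1 means of these genes were not higher with rescue (-0.06, -0.1 and -0.04). None of these rescue differences passed the limma test. Igf2bp2 was at 36.8, 33.2 and 32.8 TPM in si-CTL and 25.9, 25.7 and 30.0 TPM in si-Rsl24d1 cells (-0.32 ± 0.079, adjusted p = 0.0052), Hmga1 differed by -0.23 (adjusted p = 0.0031) and Hmga2 by -0.27 (adjusted p = 0.0082). These 3 passed lower, as did 5.64% of all tested genes, and none was called, where 1.36% of all genes were. Igf2bp3 read 27.9, 25.7 and 26.5 against 21.1, 19.7 and 24.6 TPM, without overlap (-0.29, adjusted p = 0.014). Leaving out 1 library took the adjusted p of each of the 3 above 0.01, with largest adjusted p values of 0.021 for Hmga1, 0.057 for Hmga2 and 0.034 for Igf2bp2. Igf2bp3 passed once the trend of all genes with transcript length, described further on, was removed (-0.31, adjusted p = 4.3e-05).

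The test of the rescue is the difference between the siRNA effects with and without it, and of the 8 genes it passed for Igf2bp2 alone. The effect on Igf2bp2 was less negative with rescue by 0.57 ± 0.11 (adjusted p = 0.0044), in a test in which 0.128% of genes were called and 0.906% passed higher. It rests on both sides: with rescue, Igf2bp2 differed by -0.36 in si-CTL cells and by 0.21 in si-Rsl24d1 cells. The other 7 estimates were also above 0 (0.02 to 0.28), with Hmga1 at 0.28 (adjusted p = 0.029) and Igf2bp3 at 0.25 (adjusted p = 0.27). Hmga1b, the near copy that may share reads with Hmga1, did pass this test (0.28, adjusted p = 0.0064). The Igf2bp2 result passed by a small margin, since its adjusted p reached 0.017 when 1 library was left out. Within si-Rsl24d1 cells, rescue gave no difference past the limma test for any of the 8 (4 had an unadjusted p below 0.05), where 15.3% of all genes passed and 0.28% were called. Hmga1b passed higher there (0.17, adjusted p = 0.0047). Igf2bp2 was at 23.6, 25 and 21.5 TPM without and 25.9, 25.7 and 30.0 TPM with rescue, with no overlap (0.21, adjusted p = 0.048). The longest 20% of all genes were at -0.238 in this comparison. With the length trend removed, Igf2bp2 (0.39, adjusted p = 1.1e-06) and Hmga1 (0.22, adjusted p = 0.0037) passed higher with rescue, as they did after median-of-ratios scaling (0.34 and 0.31), where 14.1% of all genes passed in the fit without the trend.

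In si-CTL cells at day 0, all 8 genes were lower with rescue than without, although Hmga1 was higher by 0.05 after median-of-ratios scaling. All rescue libraries lay below all libraries without rescue for the 8 genes, as for 37.6% of tested genes. None passed the limma test (7 had an unadjusted p below 0.05), where 0.0122% of all genes passed and 0% were called. The differences ran from -0.10 for Hmga1 to -0.57 for Trim71, with a median of -0.31 beside -0.123 for all genes. In these libraries transcripts differed with their length: the longest 20% of tested genes had a median difference of -0.247 and the shortest 20% 0.017. The transcripts of 7 of the 8 genes are longer than over 60% of the tested genes, with Trim71 at 9332 bases and Igf2bp1 at 8378 bases longer than 97.4% and 96.1% of them, and Hmga1 at 2001 bases longer than 31.5%. After the length trend was removed, the differences were -0.30 for Trim71 and -0.16 for Igf2bp1 in this comparison. The siRNA comparison at day 0 without rescue had almost no such trend (0.016 in the longest and 0.003 in the shortest 20% of genes), and its 5 passing genes also passed after the trend was removed, with Igf2bp2 at -0.91 and Lin28a at -0.38.

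Within groups, too, the 8 genes deviated together with long transcripts. Of the 24 libraries, 23 had the same sign for the mean deviation of the 8 genes from their group means and for the deviation of the longest against the shortest 20%. The 1st si-CTL library without rescue at day 0 was the highest of its group for 7 of the 8 genes (mean deviation 0.18, length deviation 0.146), and the 1st si-Rsl24d1 library without rescue at day 4 was low in both (-0.197 and -0.244). The part of RNA quality or library preparation in this was not tested.

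**Figure D3:**
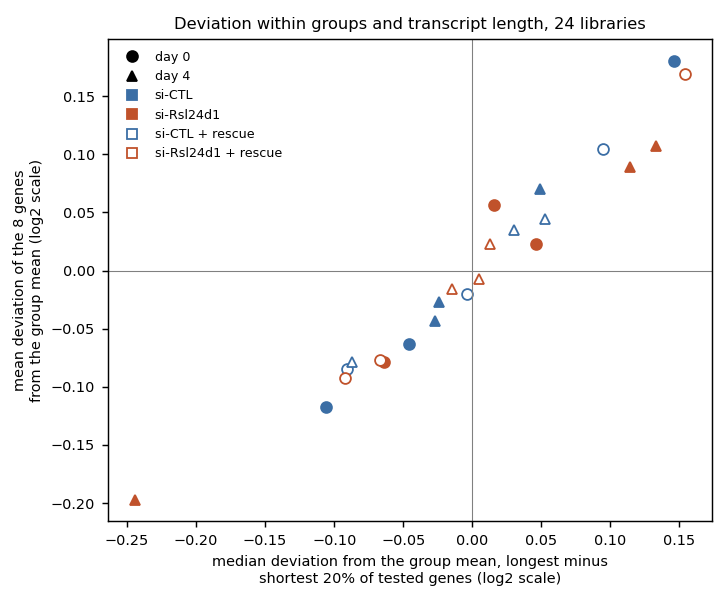
Each point is 1 of 24 libraries, with the median deviation from the group mean of the longest minus the shortest 20% of tested genes on the horizontal axis and the mean deviation of the 8 genes on the vertical axis (both log2 scale). Libraries with more signal for long transcripts than their group also had more for the 8 genes, in 23 of 24 with the same sign.

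At day 4 of RA, Lin28a, Hmga1 and Igf2bp1 were lower and Igf2bp2 higher than at day 0 past the test in all 4 conditions, while Lin28b, Trim71, Hmga2 and Igf2bp3 passed in some conditions and not in others. With the trend of all genes with transcript length removed, Lin28b and Trim71 passed lower in all 4 conditions (Lin28b -0.17 to -0.51, Trim71 -0.44 to -1.02), in fits in which 61.4% to 63.6% of all genes passed. Igf2bp1 in si-Rsl24d1 cells with rescue (-0.48, adjusted p = 0.0033) reached an adjusted p of 0.03 when 1 library, the 3rd of day 0, was left out. In si-CTL cells without rescue 4 of the 8 were called, all lower, where 15% of all tested genes were called and 8.24% were called lower. By the adjusted p alone, 6 passed lower and 1 higher, beside 36.7% and 24.1% of all genes. The 8 genes had a median difference of -0.95, against -0.104 over all genes and -0.254 in the longest 20%.

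Lin28a fell most. It went from 186, 162 and 159 TPM at day 0 to 46.5, 43.8 and 49.3 TPM at day 4 (-1.84 ± 0.084, adjusted p = 2.8e-13), a TPM ratio of 0.275. Lin28b went from 23.3, 18.7 and 18.1 to 11.1, 11.3 and 12.9 TPM (-0.72 ± 0.10, adjusted p = 5.5e-06) in these cells, a smaller difference than that of Lin28a. Trim71 fell from 51.7, 35.9 and 31.6 to 14.1, 14.8 and 15.8 TPM (-1.33 ± 0.17, adjusted p = 1.1e-06). None of these pairs of groups overlapped. The share of all tested genes without overlap is not given for this comparison, in which 60.9% of them passed the test.

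The Igf2bp family split. Igf2bp1 fell from 171, 126 and 120 to 45.7, 46.3 and 50.8 TPM (-1.51 ± 0.13, adjusted p = 5.2e-09), and Igf2bp3 from 37.2, 31.3 and 30.1 to 26.3, 26.3 and 27.5 TPM (-0.28 ± 0.081, adjusted p = 0.0042). Igf2bp2 rose from 46.9, 43.9 and 42.1 to 58.2, 57.1 and 57.1 TPM (0.37 ± 0.079, adjusted p = 0.00035). The fall of Igf2bp3 did not pass after removal of the length trend (-0.10, adjusted p = 0.061), whereas Igf2bp2 was then higher by 0.56. Of the HMGA pair, Hmga1 fell from 297, 285 and 297 to 127, 124 and 132 TPM (-1.19 ± 0.052, adjusted p = 1.3e-13) and Hmga2 read 35.9, 33.4 and 32.1 against 31.5, 29.6 and 34.0 TPM, overlapping (-0.09, interval -0.24 to 0.06).

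In si-Rsl24d1 cells without rescue, Lin28a fell less between day 0 and day 4, and Hmga2, Igf2bp2 and Igf2bp3 rose. Rsl24d1 itself went from 35.7 to 95.1 TPM between the same groups, and its part in these differences cannot be told apart from that of RA. There, 3 of the 8 genes were called, where 14.1% of all genes were, and 3 passed in each direction, beside 29.4% of genes higher and 26.4% lower. The test of the difference between the 2 RA responses is the same as that of the siRNA effect between days, given further on, and it passed for all 8 genes. Lin28a went from 133, 134 and 121 to 62.9, 78.2 and 71.9 TPM (-0.86 ± 0.084, adjusted p = 2.3e-08). Hmga2 went from 24.7, 26.4 and 24.9 to 46.0, 54.7 and 52.3 TPM (0.98 ± 0.071, adjusted p = 3.2e-10) and Igf2bp2 from 23.6, 25 and 21.5 to 48.6, 59.4 and 62.6 TPM (1.24 ± 0.079, adjusted p = 3.7e-11). Both of the latter started from the lower day 0 levels described for these cells, and for Igf2bp2 the day 4 libraries overlapped those of si-CTL cells. Igf2bp3 was higher at day 4 by 0.53 (adjusted p = 1e-05), and Hmga1 (-0.81, adjusted p = 4.3e-11) and Igf2bp1 (-0.67, adjusted p = 0.0002) were lower. Trim71 (-0.45, adjusted p = 0.027) and Lin28b (-0.18, adjusted p = 0.13) did not pass, but both did with the length trend removed (-0.47 and -0.21, adjusted p = 0.0003 and 0.0016), and Trim71 did after median-of-ratios scaling (adjusted p = 0.0065).

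With rescue, Lin28a, Hmga1 and Igf2bp2 were called with RA in both si-CTL and si-Rsl24d1 cells. In si-CTL cells with rescue, 3 of 8 were called (15.6% of all genes), with Lin28a at -1.22 (147, 129 and 128 TPM at day 0 and 58.9, 53.5 and 58.9 TPM at day 4), Hmga1 at -1.32 and Igf2bp2 at 0.92. In si-Rsl24d1 cells with rescue, 4 were called (14.9% of all genes), with Lin28a at -1.05, Hmga1 at -1.26, Igf2bp2 at 0.98 and Hmga2 at 0.85. Adjusted p values of these called genes ran up to 3.6e-09. The call of Igf2bp2 in si-CTL cells fell below the fold threshold with the length trend removed (0.71) and with median-of-ratios scaling (0.78), as did that of Hmga2 in si-Rsl24d1 cells (0.78 in both), while Igf2bp1 in si-CTL cells (-0.65) was called with the trend removed (-0.94). Lin28b and Trim71 did not pass in either (Lin28b 0.06 and -0.03, Trim71 -0.15 and -0.25), although both had passed in si-CTL cells without rescue. Length moved the other way in these libraries, with the longest 20% of all genes higher at day 4 by 0.251 and 0.159, and after removal of the trend Trim71 was at -0.45 and -0.44 (adjusted p = 0.00047 and 0.00052).

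**Figure D4:**
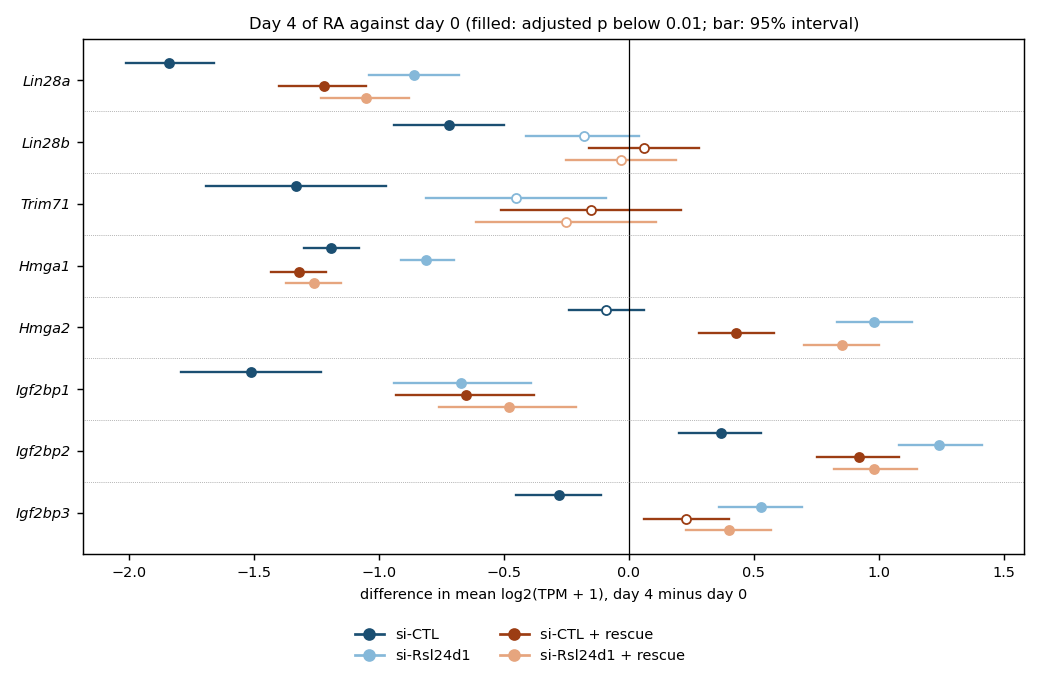
Points give the difference in mean log2(TPM + 1), day 4 minus day 0 (horizontal axis), for each gene (vertical axis) in the 4 conditions, with 95% intervals, filled where the adjusted p was below 0.01. Lin28a, Hmga1 and Igf2bp1 lie left of 0 and Igf2bp2 right of 0 in all 4, and Lin28a moves from -1.84 in si-CTL cells to -0.86 in si-Rsl24d1 cells.

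At day 4, cells treated with si-Rsl24d1 held more of 6 of the 8 transcripts than si-CTL cells, and none of the 8 was called (1.63% of all tested genes were). The 6 passed higher by the adjusted p, beside 24.9% of all genes. Lin28a was at 46.5, 43.8 and 49.3 TPM in si-CTL and at 62.9, 78.2 and 71.9 TPM in si-Rsl24d1 libraries (0.60 ± 0.084, adjusted p = 2.3e-05), and Lin28b at 11.1, 11.3 and 12.9 against 14.4, 18.3 and 18.9 TPM (0.51 ± 0.10, adjusted p = 0.00086). Trim71 was at 14.1, 14.8 and 15.8 against 17.6, 29.5 and 28.2 TPM (0.68 ± 0.17, adjusted p = 0.0035), with its 1st si-Rsl24d1 library well below the other two. No si-Rsl24d1 library overlapped a si-CTL library for these genes or for the other 3 that passed, a pattern that 37.1% of tested genes showed.

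Hmga2 (31.5, 29.6 and 34.0 against 46.0, 54.7 and 52.3 TPM) differed by 0.67 ± 0.071 (adjusted p = 9.6e-07), and Igf2bp1 (45.7, 46.3 and 50.8 against 65.9, 90.7 and 84.5 TPM) by 0.73 ± 0.13 (adjusted p = 0.00028). Igf2bp3 read 26.3, 26.3 and 27.5 against 29.0, 34.0 and 34.9 TPM (0.28 ± 0.081, adjusted p = 0.0095). Hmga1 (-0.12, adjusted p = 0.063) and Igf2bp2 (-0.02, adjusted p = 0.84), which moved with RA in all 4 conditions, had no difference past the test here, although Hmga1 passed lower after median-of-ratios scaling (-0.28, adjusted p = 0.0014) and its near copy Hmga1b did without it (-0.17, adjusted p = 0.0028). Rsl24d1 itself did not differ detectably between these groups. The median difference of the 8 genes was 0.55, beside 0.129 over all genes.

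The long transcripts as a class were higher in the same comparison, by 0.315 in the longest 20% and -0.053 in the shortest. After removal of this trend, Lin28a (0.44), Hmga2 (0.50), Igf2bp1 (0.38) and Lin28b (0.25) still passed, with adjusted p values of 3.1e-06, 9.3e-08, 0.00018 and 0.0014. Trim71 (0.32, adjusted p = 0.016) and Igf2bp3 (0.08, adjusted p = 0.23) did not, and Igf2bp2 was lower (-0.26, adjusted p = 6.1e-05). With median-of-ratios scaling Igf2bp3 did not pass either (0.12, adjusted p = 0.089) and Igf2bp2 was lower by a smaller amount (-0.18, adjusted p = 0.008). Trim71 and Igf2bp3 also lost the adjusted p when 1 library was left out, with largest values of 0.028 and 0.058. Without the 1st si-Rsl24d1 library at day 4, 2 genes were called, Trim71 at 0.91 and Igf2bp1 at 0.87.

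Some markers of other cell types also differed in this comparison. The 6 fibroblast-type genes were Col1a1, Col1a2, Col3a1, Thy1, Pdgfra and Dcn. They summed to 91.2 to 99.5 TPM in si-CTL and 173 to 241 TPM in si-Rsl24d1 libraries at day 4. At day 0 the sum was 21.0 to 46.0 TPM. None was at 0 in all libraries of a group, but the lowest library of Dcn was at 0. Of the 6, 4 passed higher, beside 24.9% of all genes, led by Col3a1 (2.05) and Col1a1 (1.45). The 6 endoderm genes (Gata4, Gata6, Sox17, Foxa2, Sox7 and Dab2) summed to 14.7 to 19.1 and 29.1 to 36.9 TPM, against 3.81 to 7.85 TPM at day 0. The 6 neural genes summed to 37.2 to 37.6 and 49.3 to 60.6 TPM, below their 77.1 to 101 TPM at day 0. Among them Nes (1.17) and Tubb3 (0.62) rose, and Pax6 (-0.28), Sox1 (0.01) and Map2 (0.06) did not pass. With rescue, where none of the 8 genes passed at day 4, the fibroblast-type sums were 115 to 133 TPM in si-CTL and 148 to 162 TPM in si-Rsl24d1 libraries. The endoderm sums were 17.5 to 21.6 and 25.1 to 26.3 TPM. There Col3a1 was called (1.04), and Gata6, Dcn, Pdgfra and Tubb3 passed higher, beside 2.33% of all genes. The other tested markers of these 3 lists did not pass. The part of these markers in the difference of the 8 genes was not tested.

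With rescue, the difference between si-Rsl24d1 and si-CTL cells at day 4 passed for 0 of the 8 genes, where 5.87% of all genes passed and 0.73% were called. The largest were -0.26 for Igf2bp2 (adjusted p = 0.037) and 0.19 for Igf2bp1 (adjusted p = 0.41). In limma, 2 of the 8 had an unadjusted p below 0.05, Hmga1 (0.0049) and Igf2bp2 (0.0041). Hmga1b, the near copy that may share reads with Hmga1, did pass lower (-0.29, adjusted p = 9.1e-05). With the length trend removed, Igf2bp2 (-0.21, adjusted p = 0.0013) passed lower and Hmga2 (0.19, adjusted p = 0.0062) higher. The siRNA effect with rescue was lower than that without for Lin28a (-0.54, adjusted p = 0.0051), Lin28b (-0.60, adjusted p = 0.0087) and Hmga2 (-0.52, adjusted p = 0.0026), where 8.25% of all genes passed lower and 0.511% were called. This test rests on both sides of the comparison: in si-CTL cells at day 4, rescue itself went with more Lin28b (0.47, adjusted p = 0.0048) and Hmga2 (0.30, adjusted p = 0.0066) and less Hmga1 (-0.23, adjusted p = 0.0051), where 8.85% of genes passed higher, 1.34% lower and 0.0547% were called. Lin28b was at 11.1, 11.3 and 12.9 TPM without and 17.2, 15.6 and 17.3 TPM with rescue there, without overlap. The longest 20% of all genes were at 0.261 in this comparison, and with the length trend removed Lin28b was at 0.25 and Hmga2 at 0.16 (adjusted p = 0.022), which did not pass. Leaving out 1 library took all 3 genes above 0.01, with largest adjusted p values of 0.027 for Lin28b, 0.039 for Hmga2 and 0.034 for Hmga1. In si-Rsl24d1 cells at day 4, Hmga1 was lower with rescue (-0.27, adjusted p = 0.0019), where 4.23% of genes passed lower and 0.0851% were called. It did not pass after median-of-ratios scaling (-0.20, adjusted p = 0.058), and its adjusted p reached 0.011 without the 2nd library with rescue. The longest 20% of all genes was at -0.366 in the test of the rescue at day 4, and after removal of the trend Lin28a (-0.35) and Hmga2 (-0.31) passed and Lin28b (-0.30, adjusted p = 0.018) did not.

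**Figure D5:**
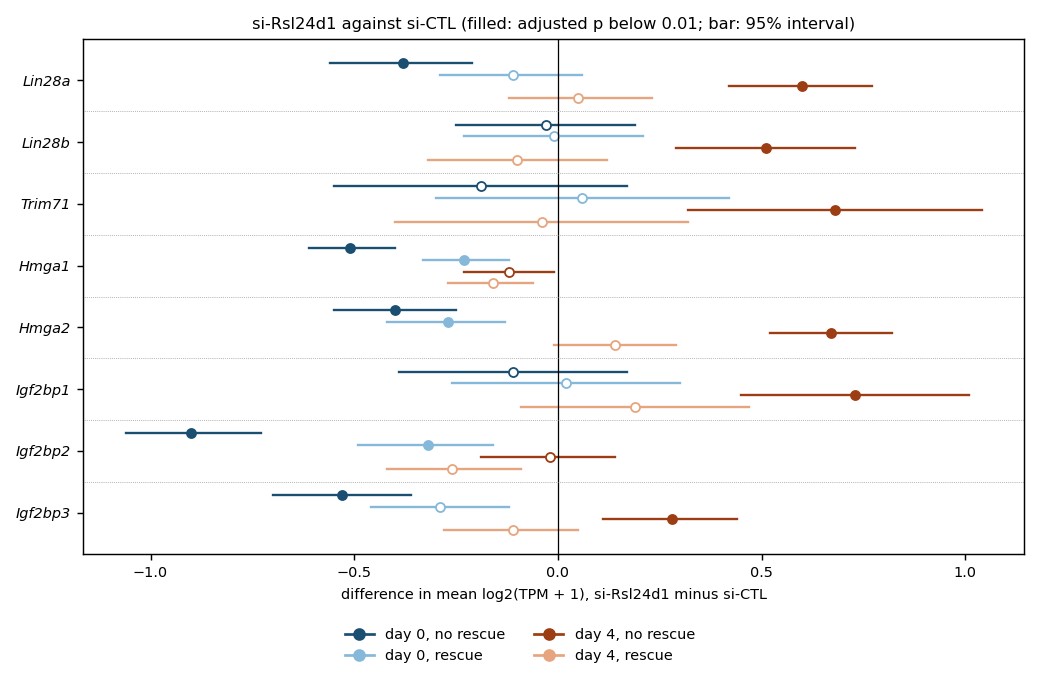
Points give the difference in mean log2(TPM + 1), si-Rsl24d1 minus si-CTL (horizontal axis), for each gene (vertical axis) in 4 settings, with 95% intervals, filled where the adjusted p was below 0.01. Without rescue the day 0 points lie left of 0 and 6 of the 8 day 4 points lie right of it, and with rescue none of the 8 day 4 points is filled.

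The siRNA effect itself changed between day 0 and day 4. Its value at day 4 minus that at day 0 was above 0 for all 8 genes and passed for all 8 without rescue, beside 22.1% of all genes passing higher. By the fold threshold 4 were called, where 5.61% of all genes were: Hmga2 (1.07 ± 0.10), Lin28a (0.98 ± 0.12), Trim71 (0.88 ± 0.24) and Igf2bp2 (0.87 ± 0.11). For Lin28a, Hmga2 and Igf2bp3 the effect went from negative to positive, for Hmga1 and Igf2bp2 a negative effect at day 0 was smaller at day 4, and for Lin28b, Trim71 and Igf2bp1 an effect passed the test at day 4 and not at day 0. This test shares its libraries with the comparisons above. The median over the 8 genes was 0.86, beside 0.142 for all genes and 0.302 for the longest 20%. After removal of the length trend all 8 passed, with 1 called (Hmga2 at 0.90), as with median-of-ratios scaling (7 passed, 1 called, Hmga1 at 0.23 with adjusted p = 0.045 the exception).

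The genes most like each of the members other than Igf2bp1 over the 24 libraries, by Pearson correlation of log2(TPM + 1), were Sugp1 and Nol9 for Lin28a (0.993 and 0.991), Pbrm1 and Nckap1 for Lin28b (0.979 and 0.978) and Nup98 and Rbm27 for Trim71 (0.987 and 0.979). For Hmga1 they were its copy Hmga1b and Adi1 (both 0.991), for Hmga2 Zfp655 and Fn1 (0.976 and 0.975), for Igf2bp2 Atp1b1 and Slc31a1 (0.986 and 0.985), and for Igf2bp3 Vcp and Fxr2 (0.96 and 0.957). The libraries share conditions and length trends, and correlations above 0.9 were common, with 1661 genes for Lin28a, 511 for Trim71 and 61 for Igf2bp3.

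Other genes of the let-7 pathway were read from lists. The first list held 17 genes, of which 16 were tested. Most make, load or degrade let-7, such as Drosha, Dicer1, the terminal uridylyl transferases Tut4 and Tut7 and the Argonautes. Tnrc6a, Tnrc6b and Tnrc6c, also in the list, instead act with the Argonautes on the target RNAs. At day 0, 3 passed higher in si-Rsl24d1 cells and 0 lower, beside 14.3% and 16.1% of all genes, and none was called: Prkra, a Dicer partner (0.27), Tut7 (0.37) and Tut4 (0.38), named after their values were seen. With RA in si-CTL cells, 10 passed lower and 2 higher, beside 36.7% and 24.1% of all genes, and 3 were called lower (8.24% of all genes), Khsrp at -1.16, Drosha at -0.98 and Tnrc6b at -0.88. In si-Rsl24d1 against si-CTL cells at day 4, 10 of the 16 passed higher (24.9% of all genes) and 0 lower, with none called and a median of 0.36, near the 0.315 of the longest 20% of all genes.

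Of 20 further genes reported as let-7 targets, 19 were tested, and 12 of the 20 held a seed match. At day 0 in si-Rsl24d1 cells, 5 passed higher and 3 lower, beside 14.3% and 16.1% of all genes, with 1 called (4.18% of all genes), the cell cycle gene Ccnd2 (1.04 ± 0.16, adjusted p = 3.2e-05), which rose while 5 of the 8 genes fell. With RA in si-CTL cells, 11 passed lower and 4 higher, beside 36.7% and 24.1% of all genes, with 6 called (15% of all genes). The growth regulators Myc (-2.86), Ccnd1 (-2.40) and Mycn (-1.69) had the largest called falls, and the growth factor Igf2 (3.27) was called higher. In si-Rsl24d1 against si-CTL cells at day 4, 11 of 19 passed higher (24.9% of all genes) and 0 lower, with Ccnd2 (1.12), Myc (0.93) and Igf2 (0.92) called (1.63% of all genes) and a median of 0.44.

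Over all tested genes with a 3′UTR, those with a seed match had medians near those without one. The 1387 genes with a match had a median difference of -0.012 for the siRNA at day 0, beside -0.024 for the 12060 without, and -0.168 beside -0.122 for RA in si-CTL cells. In the day 4 siRNA comparison the medians were 0.187 and 0.135, and after removal of the length trend they were -0.018 and -0.005.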

How the data were processed

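The 8 genes and all gene lists were chosen with earlier results of these data known. The authors deposited log2(TPM + 1) values for 24 libraries. The submitters' notes name STAR 2.7.8a, Salmon 1.4.0 and GRCh38, a human build, whereas the paper's methods name mouse GRCm38. The labels give a poly-A kit, the paper a total RNA kit; strand use in quantification was not given in the sources used here. TPM divides by transcript length and forces each library to the same sum, so a rise of some genes lowers others.

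Each library was mapped to its group by its label. A gene was tested where its log2(TPM + 1) averaged 0.5 or more, with limma 3.58.1 in R 4.3.3 (8 group means, intensity trend) in 15 comparisons, 3 of them between effects. The paper's count model needs counts, so its thresholds were applied to limma. Same-numbered libraries did not deviate together (mean correlation -0.0173 over 84 pairs, 0.0087 over 168 differently numbered pairs). All 8 genes were named; of other lists at most 3 called genes per direction; and for each gene the 2 most correlated, which for Igf2bp1 are not reported here. Alternatives were other pseudocounts, filters and scaling, a replicate block, fits of only the groups compared and leaving out each library. Removal of the length trend (lowess on the longest transcript) and the sum of Hmga1 and Hmga1b were added after seeing the data. The model was tested on simulated data.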

Additional observations from a re-analysis of the deposited data

Results flagged for a closer look

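In 12 of the tests of a difference between 2 siRNA effects, 1 of the 8 genes passed at a limma adjusted p below 0.01. For the effect of si-Rsl24d1 at day 4 minus that at day 0, without rescue, these were Lin28a (0.98, adjusted p = 2.6e-06), Lin28b (0.53, adjusted p = 0.0072), Trim71 (0.88, adjusted p = 0.0067), Hmga1 (0.39, adjusted p = 0.00031), Hmga2 (1.07, adjusted p = 9.8e-08), Igf2bp1 (0.84, adjusted p = 0.0014), Igf2bp2 (0.87, adjusted p = 4.6e-06) and Igf2bp3 (0.81, adjusted p = 1.5e-05). For the effect with rescue minus that without, at day 0, it was Igf2bp2 (0.57, adjusted p = 0.0044), and at day 4 Lin28a (-0.54, adjusted p = 0.0051), Lin28b (-0.60, adjusted p = 0.0087) and Hmga2 (-0.52, adjusted p = 0.0026). All values are log2 differences. Lin28b and Trim71 in the first test, Igf2bp2 in the second and Lin28a, Lin28b and Hmga2 in the third had an adjusted p above 0.01 when 1 library was left out, with largest values of 0.026, 0.024, 0.017, 0.019, 0.03 and 0.011.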

How the results depend on the processing

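Without the fold threshold, the number of the 8 genes called was 5 and 3 for the siRNA at day 0 without and with rescue, 6 for it at day 4 without rescue, 1 and 3 for rescue at day 4 in si-Rsl24d1 and si-CTL cells, 7, 6 and 5 for RA in si-CTL cells without rescue, in si-Rsl24d1 cells without rescue and in si-CTL cells with rescue, 8 for the change of the siRNA effect with time, and 1 (day 0) and 3 (day 4) for its change under rescue. In the RA comparisons with counts of 7, 6 and 5, 60.9%, 55.8% and 59.2% of all tested genes passed. With RA in si-Rsl24d1 cells with rescue, 3 of the 8 passed in each direction, beside 32.4% of all genes higher and 25.8% lower. For the change with time, the count fell from 4 to 1 with median-of-ratios scaling and to 1 with the length trend removed. Median-of-ratios scaling shifted the median of all genes at day 4 (siRNA, without rescue) from 0.129 to 0.003. With libraries left out in turn, the counts ran from 2 to 6 for the change with time (2 without the 1st si-CTL or 3rd si-Rsl24d1 library of day 0 or the 2nd or 3rd si-Rsl24d1 library of day 4), from 0 to 1 for the siRNA at day 0, from 0 to 2 for it at day 4 without rescue, and from 0 to 1 for its change with rescue at day 4. Lin28b with RA in si-CTL cells with rescue turned from 0.06 to -0.17 (adjusted p = 0.0091) with the length trend removed, and no other value past the test in either fit changed sign. With the replicate block, 6 values no longer passed: for the change with time Lin28b and Trim71 (both adjusted p = 0.011), so that 6 passed instead of 8 and 3 were called instead of 4, Igf2bp3 for the siRNA at day 4 (0.015), Hmga2 for it at day 0 with rescue (0.014), Hmga2 for rescue at day 4 in si-CTL cells (0.012) and Lin28b for the change under rescue at day 4 (0.014). The number of genes called was otherwise as without the block (1 at day 0 and 0 at day 4 for the siRNA without rescue, for example), and the numbers pair nothing in the labels. In fits of only the groups compared, 16 values of the 8 genes no longer passed and 3 passed newly. Without the filter on low values, 11 no longer passed. The cause of these changes was not tested. The depth of each value is unknown, and 3 libraries a group limit the precision.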
